A study of Homo sapiens with 12 samples.

Results

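The clustered replication-dependent histone genes were described across A549 cells with and without TUSC3, under ER stress and without it. A549 is a lung adenocarcinoma line. The members were found by gene name: every array feature with a single gene symbol that began with HIST1H to HIST4H, or with the current names H1-1 to H1-6, H2AC, H2BC, H3C or H4C and a number, with pseudogenes dropped and the brightest feature kept for each gene. This gave 32 genes of the 22411 gene symbols tested. They were 6 linker histone H1 genes, 9 H2A genes, 15 H2B genes, 2 H4 genes and no H3 gene. Of these, 26 lie in the large HIST1 cluster on chromosome 6, 4 in the HIST2 cluster and 2 in the HIST3 cluster on chromosome 1. Copies of H3 and H4 genes are nearly identical, and a further 36 features that carried several histone symbols at once are given apart from the 32.

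RNA was measured on 3 Human Transcriptome Array 2.0 arrays per group, in 4 groups. TUSC3 knock-out (KO) cells were given tunicamycin (TM) or DMSO, and control A549 cells, labelled wild-type, were given TM or DMSO, with TM at 3 ug/ml for 16 h. TM blocks N-linked glycosylation and thereby causes ER stress, and TUSC3 is a subunit of the oligosaccharyltransferase that attaches those glycans. The labels call these arrays ER stress and ES stress arrays where TM was given. KO cells of the study were grown from single sorted cells after transfection with a CRISPR construct. The study names 1 KO clone for these arrays, so genotype and clone cannot be told apart. TUSC3 itself, the check of the labels, had log2 values of 5.50, 5.53 and 5.78 in KO cells given TM and 5.51, 5.50 and 5.57 in KO cells given DMSO. In control cells it had 6.90, 6.93 and 7.002 with TM and 7.16, 7.03 and 7.10 with DMSO. Every KO array lay below every control array, with mean differences of -1.34 ± 0.07 with TM and -1.57 ± 0.07 with DMSO (SE).

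Replication-dependent histones package newly made DNA, and their mRNAs are made almost only in S phase. Most of these mRNAs end in a stem-loop in place of a poly(A) tail. The stem-loop is bound by SLBP, the transcript is cut next to it with the help of U7 snRNP, and the mRNA is degraded quickly when DNA synthesis stops. NPAT, which cyclin E and CDK2 activate, drives transcription of the clusters from nuclear histone locus bodies. Core histones H2A, H2B, H3 and H4 form the nucleosome, and H1 binds the linker DNA between nucleosomes. Replication-independent variants, such as H2AZ1 and CENPA, are encoded elsewhere in the genome and have spliced or polyadenylated mRNAs in most cases.

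Values are the deposited log2 values, on which a difference of 1 is a doubling of signal. Arrays of a group correlated at 0.996 to 0.998 over all symbols, which are not independent replicates. The median of all features was 4.77, and 10 of the 32 genes had a mean over the 12 arrays below it. Those genes were dim, and a difference from a group below that median is taken as a lower bound. Signal depends on the probes of a feature, so a brighter gene is not taken to have more RNA. Group means were compared with limma, a gene was called at a Benjamini-Hochberg adjusted p under 0.05 over all 22411 symbols, and errors of differences are SE. Whether the arrays of a group came from separate cultures is not stated for the arrays, and p-values may therefore measure technical spread only. The 6 A549 epithelial markers were bright, between 7.53 and 12.66 on all arrays. Their log2 values summed to 64.2 to 64.5 in KO cells given TM and 64.2 to 64.5 in KO cells given DMSO. The sums were 63.8 to 63.9 in control cells given TM and 64.4 to 64.6 in control cells given DMSO, and such a sum is no measure of RNA amount. Of the 6 markers, 1 was higher and 2 lower with TM in each genotype, and 1 was higher and 1 lower in KO than in control cells in each treatment. EPCAM, an epithelial adhesion protein, was higher in KO cells by 0.54 ± 0.04 with TM and by 0.30 ± 0.04 with DMSO. The marker called lower in KO cells was KRT7 with TM and ALDH1A1 with DMSO. The 12 tested markers of fibroblasts, blood cells and endothelium lay between 2.15 and 6.66, and 2 of them were called, both with TM in KO cells. The symbols H2AC12, H2AC13, H2AC16, H2BC6, H2BC10 and H4C3 also stand on features shared with other genes, so signal of near-identical copies may enter their values.

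The promoters are shown because histone genes of a class share short elements close to the start, and they show what lies in front of genes that fell and of the gene that rose. RefSeq promoter windows of build GRCh38.p14 matched 30 of the 32 genes, all but H2AC12 and H4C3. The 250 bases before each start were searched on both strands for the TATA box TATAAA, the CCAAT box CCAAT, the octamer ATTTGCAT and the H1 box AAACACA. No match of one element overlapped a match of another. The 120 bases before the start are printed 5′ to 3′ on the strand of the gene for 9 genes, with every match in capitals. H2BC14, H2BC10 and H2BC3 fell most with TM, H2BC12 had the brightest H2B signal, H2AC6 rose, H2AC21 fell most among the H2A genes with a promoter entry, H1-4 and H1-5 are linker histone genes, and H2BC1 is a testis gene that was dim here.
H2BC14, chr6:27814902-27815021, plus strand: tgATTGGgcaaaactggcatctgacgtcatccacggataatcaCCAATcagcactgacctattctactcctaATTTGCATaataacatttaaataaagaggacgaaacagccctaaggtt
H2BC10, chr6:26272811-26272930, plus strand: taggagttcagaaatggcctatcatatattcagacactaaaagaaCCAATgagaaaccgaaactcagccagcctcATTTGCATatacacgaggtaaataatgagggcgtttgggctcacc
H2BC3, chr6:26043714-26043833, minus strand: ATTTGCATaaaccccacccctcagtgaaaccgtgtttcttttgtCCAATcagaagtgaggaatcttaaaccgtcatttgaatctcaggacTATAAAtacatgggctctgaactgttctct
H2BC12, chr6:27146856-27146975, minus strand: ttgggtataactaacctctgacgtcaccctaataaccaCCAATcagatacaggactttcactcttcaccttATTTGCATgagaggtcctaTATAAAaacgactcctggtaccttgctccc
H2BC1, chr6:25726657-25726776, plus strand: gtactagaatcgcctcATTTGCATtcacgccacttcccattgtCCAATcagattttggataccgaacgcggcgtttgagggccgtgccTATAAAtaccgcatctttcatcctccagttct
H2AC6, chr6:26124052-26124171, plus strand: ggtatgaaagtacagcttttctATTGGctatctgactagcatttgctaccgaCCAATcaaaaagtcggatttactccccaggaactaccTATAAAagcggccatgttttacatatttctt
H2AC21, chr1:149887966-149888085, minus strand: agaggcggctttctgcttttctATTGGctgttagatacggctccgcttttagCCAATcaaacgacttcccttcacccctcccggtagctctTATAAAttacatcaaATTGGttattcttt
H1-4, chr6:26156209-26156328, plus strand: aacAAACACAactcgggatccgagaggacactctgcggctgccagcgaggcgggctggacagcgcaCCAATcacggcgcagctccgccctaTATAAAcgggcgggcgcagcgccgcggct
H1-5, chr6:27867589-27867708, minus strand: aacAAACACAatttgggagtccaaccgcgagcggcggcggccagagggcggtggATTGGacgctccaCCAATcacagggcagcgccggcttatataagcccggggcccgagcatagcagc

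A CCAAT box was found in 29 of 30 histone promoters and in 32.9% of all 27305 promoters of the same length. In 27 genes it lay on the gene's own strand with its first base 53 to 82 bases before the start. The octamer, a binding element of OCT1, was found in 11 of 15 H2B and 6 of 8 H2A promoters and in 1.68% of all promoters. In 7 H2B genes it lay on the gene's strand 45 to 49 bases before the start, as in H2BC14, H2BC10 and H2BC12 above. The H1 box was found in 6 of 6 H1 promoters, in 0 of the other 24 and in 4.96% of all promoters. A TATA box was found in 20 of 30 histone promoters and in 11.3% of all promoters. Each match is a match of letters and no measure of binding. Many H2A and H2B genes stand head to head, so that the same stretch of DNA serves both, and 5 such pairs among the 32 genes had overlapping promoter windows.

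TM lowered most of these genes in TUSC3 KO cells. Of the 32 genes, 25 fell with TM, 1 rose and 6 did not pass the test. Among all symbols, 14.9% were called lower and 12.5% higher in the same comparison. The median difference of the 32 genes was -0.60, beside -0.01 for all symbols. In 25 genes every TM array lay below every DMSO array, as in 19.5% of all symbols. Such a separation gives p = 0.1 in an exact two-sided permutation test, the smallest that 3 arrays against 3 allow. In the same comparison 41 of 42 tested DNA replication genes and 29 of 29 tested G2-M genes were lower, and their part in the histone result was not tested. The samples hold whole cultures, so fewer cells in S phase and less histone RNA per cell cannot be told apart.

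In control cells, 24 genes fell with TM and none of the 32 rose in limma, at an unadjusted p under 0.05 as well. Among all symbols, 13.6% were called lower and 11.2% higher, and 18.3% had all TM arrays below all DMSO arrays, as did 25 of the 32 genes. The median difference of the 32 genes was -0.40, beside 0.03 for all symbols. All 24 genes that fell in control cells also fell in KO cells, and H2BC26 was called in KO cells alone. For H2BC26 the difference was -0.30 ± 0.06 in KO cells and -0.14 ± 0.06 in control cells, and the difference between them did not pass the test (adjusted p = 0.325, limma). The median over the 22 brighter genes lay between 6.64 and 6.77 on the KO arrays with TM, against 7.30 to 7.40 on the KO arrays with DMSO. It lay between 6.76 and 6.82 on the control arrays with TM, against 7.32 to 7.40 on the control arrays with DMSO.

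**Figure D1:**
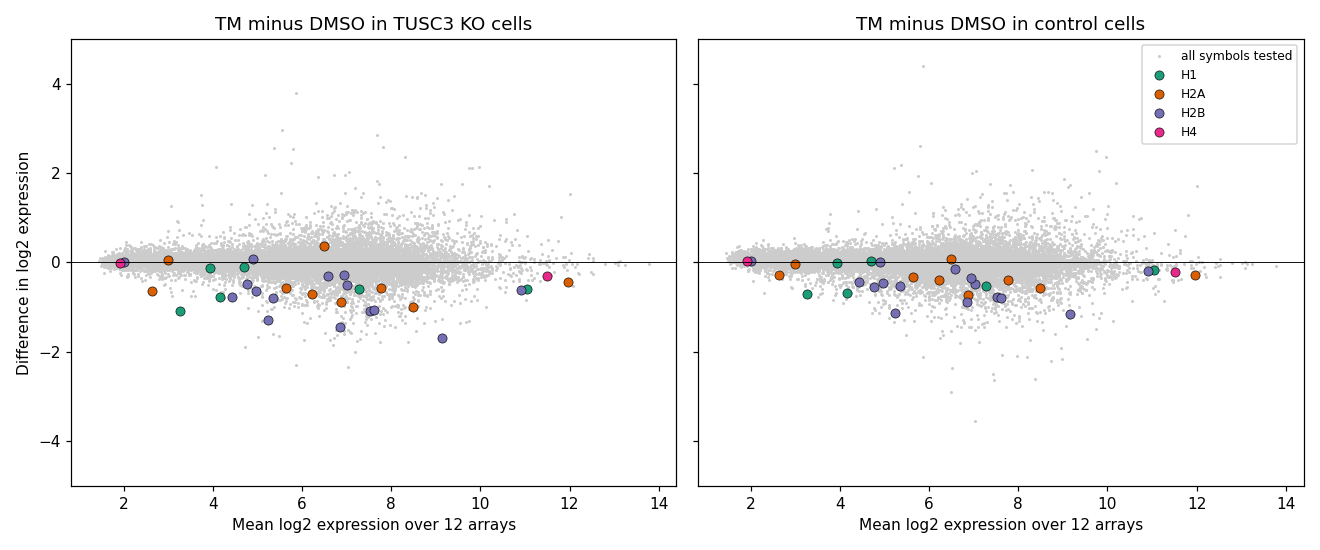
Each panel plots the difference in log2 expression between TM and DMSO (vertical axis, log2) against the mean log2 expression over 12 arrays (horizontal axis) for the 22411 symbols tested in grey and the 32 histone genes in colour by class, with KO cells on the left and control cells on the right. In KO cells 28 of the 32 coloured points lie below 0 and in control cells 27, and the points near 0 are mostly at the dim end.

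Among the 32 genes, the 4 largest measured falls in KO cells and the 5 largest in control cells were of H2B genes. H2B is the nucleosome subunit that carries the ubiquitin mark of transcribed chromatin. With TM, 13 of the 15 H2B genes fell in KO cells and 12 in control cells, beside 14.9% and 13.6% of all symbols. The medians were -0.64 and -0.49, beside -0.01 and 0.03 for all symbols. H2BC14 had log2 values of 8.20, 8.18 and 8.02 in KO cells given TM, against 9.93, 9.65 and 9.87 in KO cells given DMSO. Control cells had values of 8.75, 8.73 and 8.75 with TM, against 9.81, 10.00 and 9.91 with DMSO. The TM arrays of each genotype were far below the DMSO arrays, and those of KO cells were the lowest of all. H2BC14 fell by 1.68 ± 0.07 in KO cells, a 3.21-fold lower signal (adjusted p = 1.14e-08, limma), and by 1.16 ± 0.07 in control cells (adjusted p = 2.3e-07, limma).

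H2BC10 had log2 values of 6.001, 6.06 and 6.03 in KO cells given TM, against 7.55, 7.29 and 7.57 in KO cells given DMSO. Its values in control cells were 6.54, 6.56 and 6.46 with TM, against 7.42, 7.35 and 7.45 with DMSO. The DMSO arrays of both genotypes overlapped, whereas the TM arrays of KO cells lay below those of control cells. H2BC10 fell by 1.44 ± 0.06 in KO cells and by 0.89 ± 0.06 in control cells (adjusted p = 1.59e-08 and 8.54e-07, limma).

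H2BC3 had log2 values of 4.37, 4.24 and 4.61 in KO cells given TM, against 5.66, 5.66 and 5.75 in KO cells given DMSO. The control arrays had 4.74, 4.81 and 5.01 with TM, against 5.85, 5.94 and 6.16 with DMSO. Its arrays separated by treatment and, within each treatment, by genotype, with KO the lower. H2BC3 fell by 1.28 ± 0.10 in KO cells, where the TM mean was below the median of all features, and by 1.13 ± 0.10 in control cells. The first of these is a lower bound.

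H2BC11 had log2 values of 6.69, 6.87 and 6.91 in KO cells given TM, against 7.93, 7.83 and 7.98 in KO cells given DMSO. In control cells it had 7.34, 7.32 and 7.28 with TM, against 8.08, 7.99 and 8.16 with DMSO. All 4 groups of this gene were separate, in the order KO with TM, control with TM, KO with DMSO and control with DMSO. H2BC11 fell by 1.09 ± 0.06 in KO cells and by 0.76 ± 0.06 in control cells. H2BC17 had log2 values of 7.01, 6.95 and 6.90 in KO cells given TM, against 8.08, 7.97 and 8.03 in KO cells given DMSO. Control cells had values of 7.53, 7.24 and 7.28 with TM, against 8.11, 8.10 and 8.22 with DMSO. Its TM arrays lay below its DMSO arrays in both genotypes, and its KO arrays below its control arrays in both treatments. H2BC17 fell by 1.07 ± 0.07 in KO cells and by 0.79 ± 0.07 in control cells. H2BC13 had log2 values of 4.86, 4.77 and 4.78 in KO cells given TM, against 5.61, 5.55 and 5.62 in KO cells given DMSO. Its values in control cells were 5.22, 5.36 and 5.13 with TM, against 5.83, 5.65 and 5.84 with DMSO. H2BC13 separated in the same way and fell by 0.79 ± 0.07 in KO cells and by 0.53 ± 0.07 in control cells.

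H2BC12 had the brightest signal of the H2B genes. H2BC12 had log2 values of 10.51, 10.71 and 10.47 in KO cells given TM, against 11.22, 11.13 and 11.21 in KO cells given DMSO. The control arrays had 10.92, 10.81 and 10.85 with TM, against 11.01, 11.12 and 11.06 with DMSO. The control arrays with TM were only slightly below those with DMSO, and the KO arrays with TM were below all the others. H2BC12 fell by 0.62 ± 0.06 in KO cells and by 0.20 ± 0.06 in control cells (adjusted p = 0.0213, limma). The other H2B genes that fell in both genotypes were H2BC5, H2BC6, H2BC9, H2BC15 and H2BC21, by 0.28 to 0.78 in KO cells and by 0.36 to 0.56 in control cells. Of the 24 genes that fell in both genotypes, H2BC5 and H2BC6 were the only ones whose measured fall was smaller in KO cells, and for neither did the difference pass the test.

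The H2B genes were also divided by the octamer. The 7 genes with it 45 to 49 bases before the start had TM differences of -1.68 to 0.08 in KO cells, with a median of -0.78, and the other 8 had differences of -1.28 to 0.00, with a median of -0.56. In control cells the medians were -0.49 for both sets. These values are a description without a test.

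Of the 9 H2A genes, 7 fell with TM in each genotype, with medians over the 9 of -0.58 in KO cells and -0.33 in control cells. The shares of all symbols called lower were 14.9% in KO cells and 13.6% in control cells. H2AC21 had log2 values of 8.04, 7.84 and 7.85 in KO cells given TM, against 8.92, 8.94 and 8.89 in KO cells given DMSO. In control cells it had 8.17, 8.35 and 8.38 with TM, against 8.81, 8.92 and 8.87 with DMSO. The DMSO arrays of both genotypes overlapped and the TM arrays did not, those of KO cells being lower. H2AC21, a gene of the HIST2 cluster, fell by 1.00 ± 0.06 in KO cells and by 0.56 ± 0.06 in control cells (adjusted p = 2.21e-07 and 2.91e-05, limma). H2AC20 had log2 values of 11.69, 11.71 and 11.69 in KO cells given TM, against 12.17, 12.08 and 12.18 in KO cells given DMSO. Control cells had values of 11.90, 11.81 and 11.83 with TM, against 12.12, 12.13 and 12.14 with DMSO. Arrays of a group lay close together, and the TM arrays were below the DMSO arrays in both genotypes. H2AC20 fell by 0.45 ± 0.03 in KO cells and by 0.28 ± 0.03 in control cells.

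H2AC12 had log2 values of 6.45, 6.29 and 6.36 in KO cells given TM, against 7.23, 7.30 and 7.24 in KO cells given DMSO. Its values in control cells were 6.56, 6.74 and 6.40 with TM, against 7.23, 7.29 and 7.34 with DMSO. The treatments did not overlap in either genotype, and the genotypes overlapped within each treatment. H2AC12 fell by 0.89 ± 0.07 in KO cells and by 0.72 ± 0.07 in control cells. H2AC13, H2AC14, H2AC16 and H2AC25 fell by 0.57 to 0.71 in KO cells and by 0.29 to 0.40 in control cells. H2AC14, the dimmest of the class, had 2.11, 2.46 and 2.11 in KO cells given TM, against 2.79, 2.87 and 2.92 with DMSO, and 2.56, 2.60 and 2.54 in control cells given TM, against 2.81, 2.95 and 2.82 with DMSO. H2AC14 stands head to head with H2BC14, and the measured falls of the pair in KO cells were 0.63 and 1.68. The pair H2AC20 and H2BC21 fell by 0.45 and 0.52, and the pair H2AC13 and H2BC13 by 0.57 and 0.79. The pair H2AC25 and H2BC26 had the larger fall in the H2A gene, at 0.71 and 0.30, and neither H2AC1 nor H2BC1 passed the test.

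H2AC6 was the exception among the H2A genes. It is one of the histone genes also known to give polyadenylated RNA. H2AC6 had log2 values of 6.71, 6.62 and 7.03 in KO cells given TM, against 6.44, 6.31 and 6.53 in KO cells given DMSO. The control arrays had 6.44, 6.47 and 6.38 with TM, against 6.30, 6.31 and 6.44 with DMSO. The KO arrays with TM were above all other arrays, and the other 3 groups overlapped. H2AC6 rose by 0.36 ± 0.09 with TM in KO cells (adjusted p = 0.0113, limma), and its difference in control cells was 0.08 ± 0.09 (adjusted p = 0.607, limma). The rise in KO cells was not called when the 2 compared groups were fitted alone (adjusted p = 0.0632, limma) or without DMSO array 2 of KO cells (difference 0.30, adjusted p = 0.0529, limma). The other 4 tested genes of the polyadenylated list, H1-2, H2BC5, H2BC12 and H2BC21, fell in both genotypes.

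Among the linker histones, 4 of 6 genes fell with TM in each genotype, beside 14.9% of all symbols in KO cells and 13.6% in control cells. H1-4 had log2 values of 10.69, 10.74 and 10.49 in KO cells given TM, against 11.20, 11.30 and 11.24 in KO cells given DMSO. In control cells it had 11.10, 11.04 and 11.07 with TM, against 11.21, 11.30 and 11.24 with DMSO. The KO arrays with TM were the lowest, and the DMSO arrays of both genotypes overlapped almost fully. H1-4 fell by 0.61 ± 0.05 in KO cells and by 0.18 ± 0.05 in control cells (adjusted p = 5.1e-06 and 0.035, limma). H1-2 had log2 values of 6.88, 6.96 and 6.79 in KO cells given TM, against 7.48, 7.37 and 7.57 in KO cells given DMSO. Control cells had values of 7.13, 7.06 and 7.16 with TM, against 7.69, 7.55 and 7.72 with DMSO. H1-2 separated by treatment, and the falls of 0.59 ± 0.06 in KO cells and 0.54 ± 0.06 in control cells were close to each other.

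H1-3 and H1-5 also fell, but both were dim in every group. H1-3 had 3.65, 3.65 and 3.83 in KO cells given TM, against 4.54, 4.38 and 4.53 with DMSO, and 3.89, 3.76 and 3.95 in control cells given TM, against 4.42, 4.61 and 4.65 with DMSO. H1-5 had 2.84, 2.61 and 2.67 in KO cells given TM, against 3.73, 3.66 and 3.99 with DMSO, and 3.14, 2.80 and 2.79 in control cells given TM, against 3.43, 3.70 and 3.70 with DMSO. In both genes no TM array reached a DMSO array of the same genotype. The falls were 0.77 ± 0.08 and 0.69 ± 0.08 for H1-3, and 1.09 ± 0.12 and 0.70 ± 0.12 for H1-5, in KO and control cells in that order, all as lower bounds.

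H4C3 is one of several gene copies that encode H4. H4C3 had log2 values of 11.26, 11.31 and 11.27 in KO cells given TM, against 11.58, 11.59 and 11.59 in KO cells given DMSO. Its values in control cells were 11.48, 11.52 and 11.40 with TM, against 11.72, 11.65 and 11.68 with DMSO. The groups did not overlap, and the falls of 0.31 ± 0.03 in KO cells and 0.22 ± 0.03 in control cells were small.

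The 6 genes that passed the test in none of the 4 comparisons between groups were H1-1, H1-6, H2AC1, H2BC1, H2BC18 and H4C7. H1-6, H2AC1 and H2BC1 are testis histone genes, made in developing sperm cells. All but H2BC18 had means below the median of all features. H1-1 had 4.03, 3.65 and 3.92 in KO cells given TM, against 4.01, 3.93 and 4.02 with DMSO, and 3.81, 4.04 and 4.02 in control cells given TM, against 4.12, 3.86 and 3.92 with DMSO. H1-6 had 4.49, 4.47 and 4.65 in KO cells given TM, against 4.56, 4.75 and 4.62 with DMSO, and 4.81, 4.83 and 4.76 in control cells given TM, against 4.59, 4.77 and 4.98 with DMSO. In both, arrays of TM and DMSO overlapped in at least 1 genotype. H2BC1 had 2.00, 1.97 and 1.93 in KO cells given TM, against 1.87, 1.98 and 2.04 with DMSO, and 2.14, 1.99 and 2.02 in control cells given TM, against 2.01, 2.16 and 1.91 with DMSO. H4C7 had 1.90, 1.77 and 1.84 in KO cells given TM, against 1.88, 1.90 and 1.77 with DMSO, and 2.13, 1.93 and 1.93 in control cells given TM, against 1.93, 1.94 and 2.01 with DMSO. In these the arrays of all 4 groups lay within a narrow low range. TM differences in KO and control cells were -0.12 ± 0.10 and -0.01 ± 0.10 for H1-1, and -0.11 ± 0.09 and 0.02 ± 0.09 for H1-6. They were 0.00 ± 0.07 and 0.02 ± 0.07 for H2BC1, and -0.02 ± 0.06 and 0.04 ± 0.06 for H4C7. H2AC1 and H2BC18 had TM differences of 0.05 ± 0.05 and 0.08 ± 0.05 in KO cells, and of -0.03 ± 0.05 and 0.01 ± 0.05 in control cells. For dim genes a change below the detection of the array cannot be told from none.

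**Figure D2:**
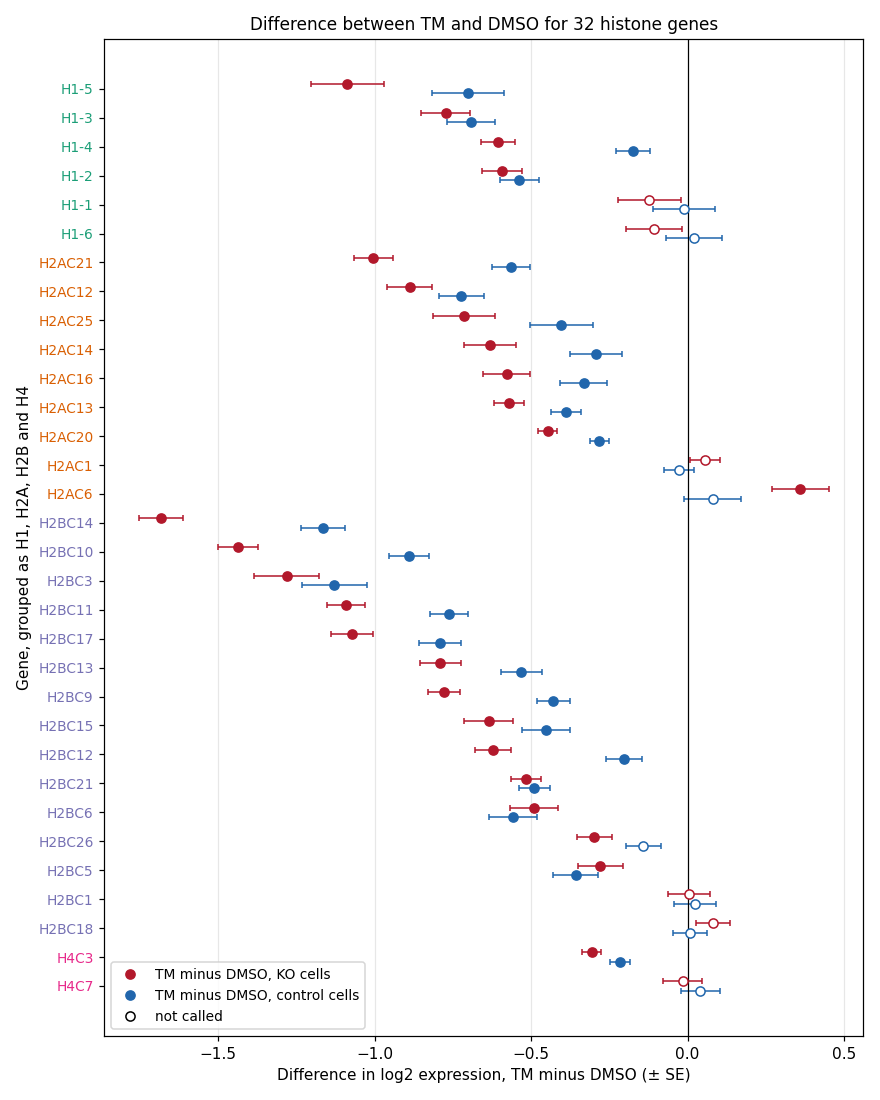
Difference in log2 expression between TM and DMSO (horizontal axis, log2, bars are SE) for each of the 32 genes, grouped as H1, H2A, H2B and H4, with KO cells in red and control cells in blue; filled points passed the limma test (adjusted p under 0.05) and open points did not. Of the red points, 25 lie filled to the left of 0 and H2AC6 lies filled to the right at 0.36, and of the blue points 24 lie filled to the left.

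**Figure D3:**
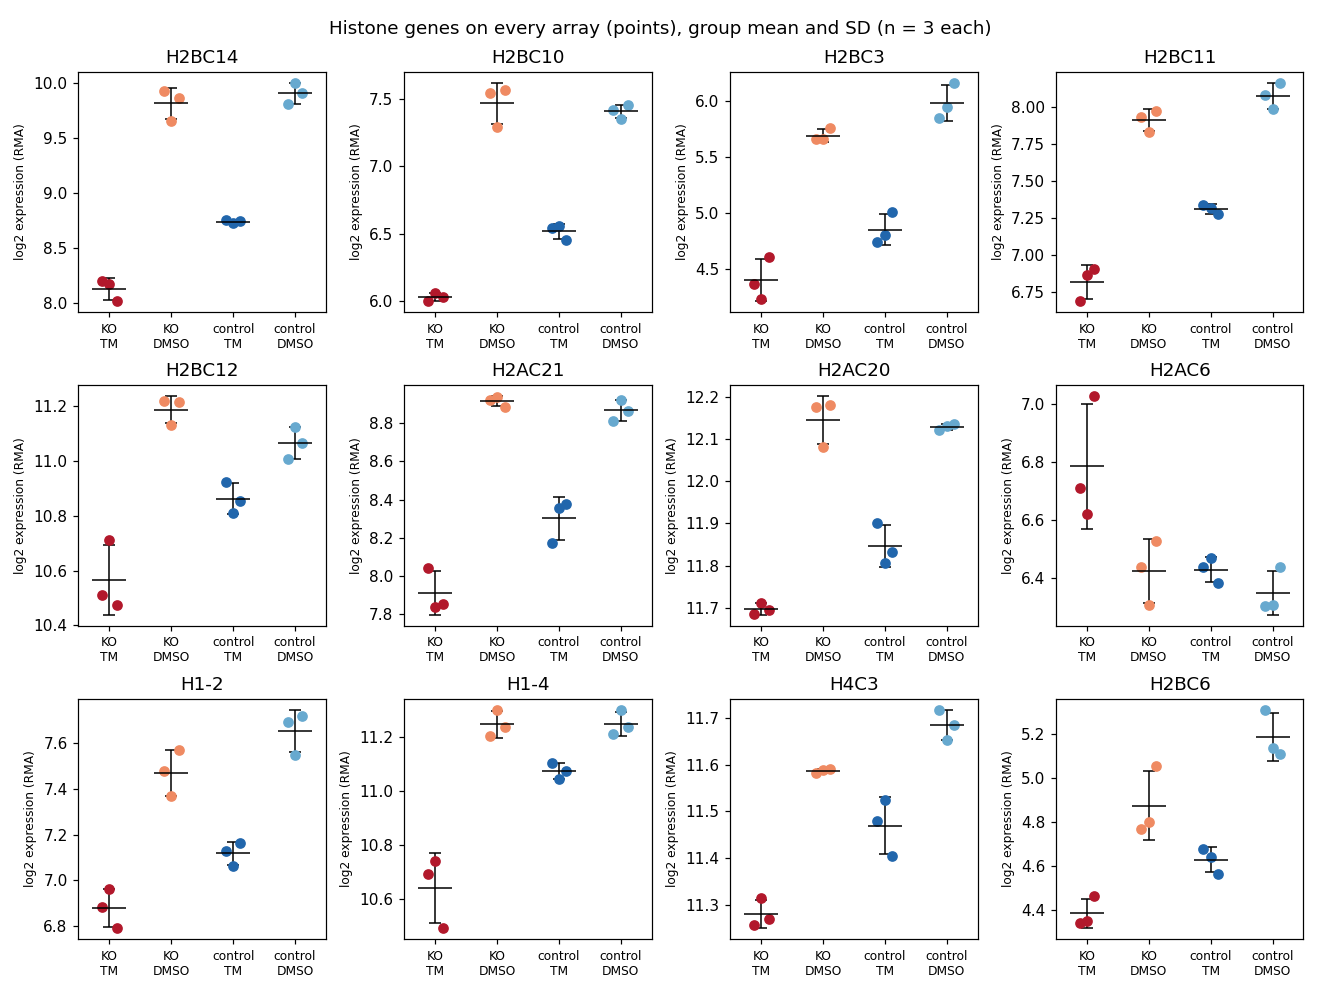
Log2 expression (vertical axis, RMA values, a scale of its own in each panel) of 12 histone genes on every array, as points, with the group mean and SD (n = 3 arrays) in black, for KO cells with TM and DMSO and control cells with TM and DMSO. For 11 of the 12 genes the KO arrays with TM are the lowest, as for H2BC14 at 8.02 to 8.20, and for H2AC6 they are the highest at 6.62 to 7.03. The 12 genes are a selection, and over all 32 genes 21 had every KO array below every control array with TM.

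Whether TM moved these genes more in KO than in control cells was tested as the interaction, the TM difference in KO cells minus that in control cells. The interaction was negative in 27 of the 32 genes, beside 59.6% of all symbols, with a median of -0.17, beside -0.03 for all symbols. It passed the test in 8 genes, all negative, and the 24 others did not pass. Among all symbols, 3.73% were called with a negative and 4.18% with a positive interaction. The difference between the genotypes was -0.55 ± 0.09 for H2BC10 (adjusted p = 0.00342, limma), -0.52 ± 0.10 for H2BC14 and -0.42 ± 0.08 for H2BC12. It was -0.44 ± 0.09 for H2AC21, -0.43 ± 0.08 for H1-4 and -0.35 ± 0.07 for H2BC9. It was -0.33 ± 0.09 for H2BC11 and -0.17 ± 0.04 for H2AC20. In all 8 the fall with TM was larger in KO cells. H2BC11 and H2AC20 passed narrowly (adjusted p = 0.0393 and 0.0403, limma), and leaving out single arrays gave values of up to 0.0985 and 0.105, above 0.05 without any of 8 arrays for H2BC11 and any of 9 arrays for H2AC20. Without the variance trend H2AC20 had an adjusted p of 0.0849 in limma. H2BC9 was a dim gene, with 3.94, 3.96 and 3.88 in KO cells given TM, against 4.81, 4.66 and 4.64 with DMSO, and 4.23, 4.35 and 4.35 in control cells given TM, against 4.74, 4.76 and 4.72 with DMSO.

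Over the 32 genes, the TM differences in KO and in control cells, which share no arrays, had a Pearson correlation of 0.93 and a Spearman correlation of 0.90, beside a Pearson correlation of 0.79 over all symbols. This is a description across genes, which are not independent and include dim genes near 0 in both. The ratio of the differences was not the same for all genes. H2BC12 and H1-4 fell by 0.62 and 0.61 in KO cells, against 0.20 and 0.18 in control cells, while H2BC21 and H1-2 fell by 0.52 and 0.59 in KO cells, against 0.49 and 0.54 in control cells. For H2BC21 and H1-2 the interaction was -0.03 ± 0.07 and -0.06 ± 0.09 and did not pass the test.

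**Figure D4:**
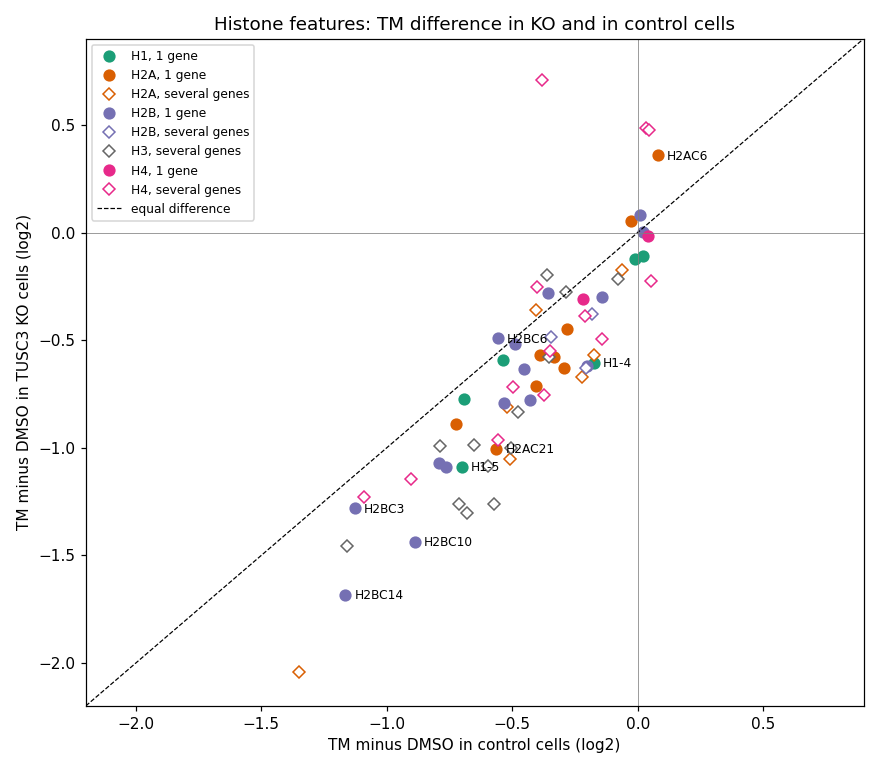
Difference in log2 expression between TM and DMSO in KO cells (vertical axis) against that in control cells (horizontal axis) for the 32 genes as filled circles and the 36 features of several histone genes as open diamonds, coloured by class; the dashed line marks equal differences. Most points lie below the line, H2BC14 lies at -1.68 in KO cells and -1.16 in control cells, and 3 open H4 diamonds lie above 0 in KO cells.

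KO and control cells were also compared under each treatment. With TM, 15 of the 32 genes were lower in KO than in control cells and 1, H2AC6, was higher. Among all symbols, 7.97% were called lower and 8.99% higher, and 15.0% had every KO array below every control array, as did 21 of the 32 genes. The median difference was -0.24, beside -0.02 for all symbols. H2BC14 was lower by 0.61 ± 0.07 on the log2 scale, a 1.53-fold lower signal in KO cells (adjusted p = 0.000106, limma). The differences were -0.49 ± 0.06 for H2BC11, -0.49 ± 0.06 for H2BC10 and -0.45 ± 0.10 for H2BC3. They were -0.44 ± 0.07 for H2BC13, -0.43 ± 0.05 for H1-4, -0.40 ± 0.07 for H2BC17 and -0.39 ± 0.06 for H2AC21. All these KO arrays lay below all control arrays. The other genes called lower were H1-2, H2AC13, H2AC14, H2AC20, H2BC9, H2BC12 and H4C3, by 0.15 to 0.39. By the methods' t-test, 5 genes were lower after Benjamini-Hochberg adjustment over all symbols and 19 before it. Among all 22411 symbols, that test called 678 lower after adjustment and 2257 before it.

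H2AC6 was higher by 0.36 ± 0.09 in KO cells with TM (adjusted p = 0.0195, limma). The call was lost with the compared groups alone (adjusted p = 0.0718, limma) and without control TM array 1 or 3 (adjusted p = 0.0543 and 0.0660, limma). The interaction of H2AC6 was 0.28 ± 0.13 and did not pass the test (adjusted p = 0.266, limma). Its rise with TM in KO cells is therefore not shown to differ from control cells.

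Under DMSO few genes differed. Of the 32 genes, 1 was lower in KO than in control cells, 0 were higher and 31 did not pass the test in limma, beside 6.11% lower and 6.58% higher among all symbols. At an unadjusted p under 0.05, 6 were lower and 0 higher. The share of all symbols at that looser threshold was not counted, so the 6 cannot be set against it. The median difference was -0.03, beside 0.01 for all symbols, and the single differences ran from -0.31 to 0.19. In 8 genes every KO array lay below every control array and in 1 gene, H2BC12, every KO array lay above, as in 11.9% and 14.8% of all symbols. H2BC6 had log2 values of 4.77, 4.80 and 5.06 in KO cells given DMSO, against 5.31, 5.14 and 5.11 in control cells given DMSO. With TM it had 4.34, 4.35 and 4.46 in KO cells, against 4.68, 4.64 and 4.57 in control cells. The KO arrays were below the control arrays in both treatments. H2BC6 was lower by 0.31 ± 0.08 with DMSO (adjusted p = 0.0212, limma), and its difference with TM was -0.24 ± 0.08 (adjusted p = 0.0541, limma). This dim gene lost its call under DMSO with the compared groups alone (adjusted p = 0.0979, limma), and without control DMSO array 1 or KO DMSO array 1 or 2 (adjusted p = 0.0863 to 0.0917, limma).

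**Figure D5:**
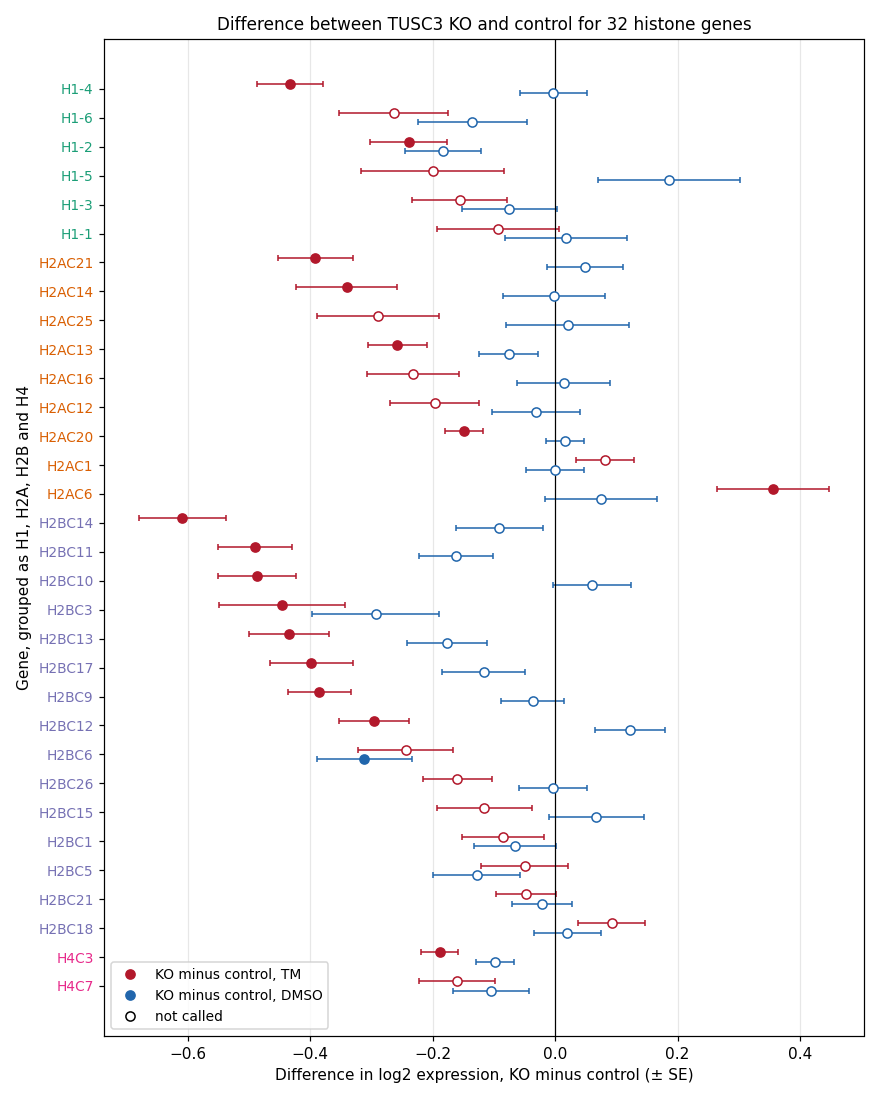
Difference in log2 expression between KO and control cells (horizontal axis, log2, bars are SE) for each of the 32 genes, grouped as H1, H2A, H2B and H4, with TM in red and DMSO in blue; filled points passed the limma test (adjusted p under 0.05) and open points did not. Of the red points, 15 lie filled to the left of 0 and H2AC6 lies filled to the right, and the only filled blue point is H2BC6 at -0.31.

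Features that carry several histone symbols gave the only view of H3 and most of that of H4. Of the 36 features, 30 were lower and 3 higher with TM in KO cells, and 28 were lower and 0 higher in control cells. Among all symbols, 14.9% were lower and 12.5% higher in KO cells, and 13.6% lower and 11.2% higher in control cells. The 13 H3 features had a median difference of -0.99 in KO cells and -0.57 in control cells, with 11 and 12 called lower. Features were classed by the first symbol of their list. The H3 feature whose list begins with H3C4 also carried the H2A gene H2AC7, was dim, with a mean of 2.33, and was called lower in both genotypes. The 13 H4 features had medians of -0.49 and -0.37, with 10 and 9 called lower. The lowest was a feature of H2AC4 and H2AC8, at -2.04 in KO cells and -1.35 in control cells. In KO cells 24 features were lower and 3 higher than in control cells with TM, beside 7.97% and 8.99% of all symbols, and 4 were lower and 1 higher with DMSO, beside 6.11% and 6.58%. As the symbols of a feature cannot be told apart, none of these values belongs to a single gene.

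All 13 H4 features carried the same 14 H4 symbols, with H4C3, which fell on its own feature, among them. With TM in KO cells, 10 of these features were lower and 3 were higher. One whose list begins with H4C8 had log2 values of 7.48, 7.48 and 7.32 in KO cells given TM, against 6.73, 6.79 and 6.64 with DMSO. In control cells it had 7.14, 7.11 and 7.09 with TM, against 7.46, 7.51 and 7.50 with DMSO. It was higher with TM in KO cells and lower with TM in control cells, and under DMSO the KO arrays lay far below the control arrays. The differences were 0.71 ± 0.05 with TM in KO cells, -0.38 ± 0.05 with TM in control cells and -0.77 ± 0.05 between KO and control cells under DMSO, and all passed the test. A pair of features whose list begins with H4C15 was also higher with TM in KO cells, by 0.49 and 0.48 (SE 0.04 and 0.03), and in control cells the differences were 0.03 and 0.05. This pair had almost the same value on every array, so it may be read as 1 measurement. Another feature whose list begins with H4C15 was lower with TM, by 0.55 ± 0.05 in KO cells and by 0.35 ± 0.05 in control cells.

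Genes that act on histone transcription and mRNA were lower with TM in part. Of 19 genes for transcription and processing of histone mRNA, 13 were lower and 0 higher with TM in KO cells, and 8 were lower and 1 higher in control cells, with medians of -0.21 and -0.06. The shares of all symbols were 14.9% lower and 12.5% higher in KO cells, and 13.6% lower and 11.2% higher in control cells. SLBP had log2 values of 7.50, 7.49 and 7.48 in KO cells given TM, against 8.06, 7.90 and 7.94 in KO cells given DMSO. The control arrays had 7.62, 7.60 and 7.54 with TM, against 7.92, 8.05 and 7.98 with DMSO. SLBP, the stem-loop binding protein, fell by 0.48 ± 0.05 in KO cells and by 0.40 ± 0.05 in control cells, and KO and control arrays overlapped under DMSO. NPAT, the transcriptional coactivator of the clusters, fell by 0.31 ± 0.09 in KO cells and by 0.52 ± 0.09 in control cells. CDK2, the S phase kinase that activates NPAT, fell by 1.07 ± 0.05 and 0.87 ± 0.05, and CCNE2, an E-type cyclin, by 0.95 ± 0.05 and 1.03 ± 0.05, in KO and control cells in that order. CASP8AP2, the histone locus body protein FLASH, fell by 0.50 ± 0.05 and 0.32 ± 0.05. CPSF2 alone rose in control cells, by 0.22 ± 0.05. In KO cells under TM, 2 of the 19 genes were lower than in control cells and 1 was higher, beside 7.97% and 8.99% of all symbols. For SLBP and NPAT the difference did not pass the test.

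Genes of the replication-independent histone list, in which H2AX was counted, were also lower with TM in most cases, 7 of 8 tested in each genotype. The shares of all symbols called lower were 14.9% in KO cells and 13.6% in control cells. H2AX had log2 values of 7.06, 7.38 and 7.07 in KO cells given TM, against 8.23, 8.24 and 8.27 in KO cells given DMSO. In control cells it had 7.50, 7.41 and 7.32 with TM, against 8.19, 8.29 and 8.32 with DMSO. H2AX, the variant phosphorylated at DNA breaks, fell by 1.08 ± 0.08 in KO cells and by 0.85 ± 0.08 in control cells, with no overlap between treatments. H2AZ1, a variant at gene starts, fell by 0.67 ± 0.04 and 0.58 ± 0.04, and CENPA, the centromeric H3 variant, by 0.49 ± 0.05 and 0.35 ± 0.05. In KO cells with TM, H2AZ2 was 0.23 ± 0.03 higher than in control cells and MACROH2A2, a repressive H2A variant, was lower by 0.37 ± 0.03. Of 21 tested histone chaperone genes, 14 were lower and 1 higher with TM in KO cells, and 12 were lower and 2 higher in control cells. The shares of all symbols called higher were 12.5% and 11.2%. CHAF1B, a subunit of the complex that places H3 and H4 on new DNA, fell by 1.27 ± 0.07 and 0.85 ± 0.07. ASF1A, another H3 and H4 chaperone, rose by 0.39 ± 0.09 and 0.32 ± 0.09.

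Genes of DNA replication were lower with TM as well. Of 42 tested, 41 were lower with TM in each genotype, with medians of -1.06 in KO cells and -0.66 in control cells, and for 31 the interaction was called negative. The shares of all symbols were 14.9% lower in KO cells, 13.6% lower in control cells and 3.73% with a negative interaction. MCM10, a replication initiation factor, fell by 2.00 ± 0.05 in KO cells and by 1.39 ± 0.05 in control cells, and PCNA, the replication clamp, by 1.53 ± 0.04 and 1.51 ± 0.04. With TM, 29 of the 42 were lower in KO than in control cells, beside 7.97% of all symbols. With DMSO 10 were higher and 1 lower, beside 6.58% and 6.11% of all symbols. Of 29 tested genes of G2-M and mitosis, 29 were lower with TM in KO cells and 28 in control cells, with medians of -0.85 and -0.65. Of 21 tested cyclins, CDK inhibitors and E2F factors, 12 were lower and 2 higher in KO cells, and 13 were lower and 5 higher in control cells. The shares of all symbols called higher with TM were 12.5% in KO cells and 11.2% in control cells. CDKN1A, the CDK inhibitor p21, rose by 0.19 ± 0.05 and 0.25 ± 0.05. The labels name the reagents of cDNA synthesis but not its primers, and how RNA without a poly(A) tail was primed was not tested.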

How the data were processed

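Total RNA of A549 cells was hybridised to Human Transcriptome Array 2.0 arrays, 3 per group in 4 groups. The log2 values were deposited by the authors after RMA, a method that subtracts background, equalises the distribution of the arrays and combines the probes of each feature. For the RMA software, version and annotation, the sources used here give no build or number. The deposited table held 70523 features on 12 arrays, of which 23781 had 1 gene symbol, 1543 several and 45199 none. For each of 22411 symbols the feature with the highest mean over the arrays was used. RMA draws dim values towards each other, so differences of dim genes may be understated. As no counts exist, precision is set by the 3 arrays of a group. The labels name biotin as the label and Cy3 in the labelling protocol, a point not settled here.

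Group means were fitted with limma 3.58.1 in R 4.3.3 (lmFit, contrasts, eBayes with a variance trend) over all 12 arrays, without further normalization or blocks. Genes were called at a Benjamini-Hochberg adjusted p under 0.05 over all symbols. Tables and figures were made with Python 3.11.15, pandas 2.3.3, numpy 2.4.6, scipy 1.17.1 and matplotlib 3.10.9. The scripts were tested on simulated data. The histone genes and gene lists were chosen with earlier results of these data known. Values of every array were given for up to 8 called histone genes with the largest difference each way in each of 5 comparisons, for every H1 gene, for the brightest and dimmest gene of each class, and for TUSC3. Of the other lists, up to 4 called genes each way per list and comparison could be named, besides SLBP and NPAT. The alternatives were a further quantile normalization, a fit without the variance trend, a fit of only the groups compared, a replicate block, the mean over a gene's features, the features of several histone genes added, dim genes left out, the methods' t-test before and after adjustment, and each array left out in turn. Promoter sequences came from RefSeq, build GRCh38.p14, with matches for 30 of 32 genes.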

Additional observations from a re-analysis of the deposited data

Results flagged for a closer look

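The response to TM differed between KO and control cells for 8 histone genes by the interaction in limma, the TM difference in KO cells minus that in control cells. The values were -0.55 for H2BC10, -0.52 for H2BC14, -0.44 for H2AC21, -0.43 for H1-4, -0.42 for H2BC12, -0.35 for H2BC9, -0.33 for H2BC11 and -0.17 for H2AC20. In each the KO arrays with TM were lower than the control arrays with TM, while the difference under DMSO did not pass the test. Under TM, DNA replication genes were also lower in KO than in control cells, in 29 of 42, beside 7.97% of all symbols. Their part in these values was not tested.

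For 3 features that carry several H4 genes, all among those higher with TM in KO cells, the interaction was positive. It was 1.09 for the feature whose list begins with H4C8 (adjusted p = 6.43e-06, limma). It was 0.45 and 0.43 for a pair of features whose list begins with H4C15 and whose arrays had almost the same values. The other 10 H4 features, another whose list begins with H4C15 among them, were lower with TM in KO cells.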

How the results depend on the processing

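Of 35 pairs of a named histone gene and a comparison, 0 turned direction in any alternative that covered them. Of the 35 pairs, 25 kept their call under every such alternative and 10 lost it under at least 1. The interaction was not fitted with the compared groups alone or by the methods' t-test. Dim genes had no value where dim genes were left out. With the features of several histone genes added, 55 features were lower and 4 higher with TM in KO cells, and 52 were lower with TM in control cells. In that setting KO cells had 39 lower and 4 higher with TM and 5 lower and 1 higher with DMSO than control cells, and the interaction was negative for 23 and positive for 3. That alternative adds 36 features to the 32 genes. All 22447 entries of that fit gave 3369 lower and 2809 higher with TM in KO cells, and 3074 lower in control cells. Between KO and control cells 1811 were lower and 2018 higher with TM, and 1373 and 1476 with DMSO. The interaction was negative for 852 entries and positive for 939. With the compared groups alone, 0 genes were higher with TM in KO cells and 0 were higher in KO than in control cells with TM. That fit called 2352 and 1539 of all 22411 symbols higher. By the methods' t-test, 0 genes were higher with TM in KO cells before or after adjustment, beside 2911 and 1691 of all 22411 symbols. With TM, after adjustment, 5 were lower and 0 higher in KO than in control cells, beside 678 and 881 symbols. With DMSO, 3 were lower and 1 higher before adjustment, beside 2037 and 2367 symbols. After adjustment 0 were lower with DMSO, beside 707 symbols. With dim genes left out, 0 genes were lower in KO cells with DMSO, as H2BC6, the only gene called in the main fit, was dropped. Of the 15589 symbols kept, 1364 were lower. Leaving out each array in turn gave 0 to 1 genes higher and 24 to 25 lower with TM in KO cells, and 21 to 25 lower with TM in control cells. It gave 0 to 1 higher and 14 to 17 lower in KO than in control cells with TM, 0 to 3 lower with DMSO, and 6 to 9 with a negative interaction. The count with DMSO was 0 without control DMSO array 1 or KO DMSO array 1 or 2, 2 without control TM array 2 or 3, and 3 without control DMSO array 2. Over all symbols, leaving out arrays gave 2327 to 2862 higher and 2765 to 3371 lower with TM in KO cells. In control cells 2562 to 3277 symbols were lower. KO cells had 1582 to 2132 symbols higher and 1307 to 1891 lower than control cells with TM, and 971 to 1562 lower with DMSO. A negative interaction was called for 532 to 969 symbols. The cause of these changes was not tested.

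The replicate number was also used as a block. Arrays of the same number had deviations from their group means that correlated at -0.10 to 0.39 over 18 pairs, 9 of them above 0.1. Pairs numbered 3 ran from 0.13 to 0.34, those numbered 1 from -0.06 to 0.17 and those numbered 2 from -0.10 to 0.39. An array correlated best with its own number in 20 of 36 cases, each with 3 arrays to choose from. Whether arrays of the same number were prepared together is not stated and was not tested. With the replicate block, 2 genes were lower in KO than in control cells with DMSO, against 1 without it, and no other count of calls moved by over 1.5 times. Over all symbols the block raised the calls in every comparison. Symbols lower in KO cells with DMSO rose from 1369 to 1566. Positive and negative interactions rose from 936 and 837 to 1188 and 1069. Signal near the floor of the array can hide a change in the 10 dim genes, of which 5 were called lower with TM in each genotype. The shares of all symbols were 14.9% in KO cells and 13.6% in control cells.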

Other observations

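A few genes that act on histone mRNA differed between KO and control cells without TM. Of the 19 genes for transcription and processing of histone mRNA, 4 were higher and 0 lower in KO than in control cells with DMSO, beside 6.58% higher and 6.11% lower among all symbols. They were CCNE1, an E-type cyclin, at 0.25 ± 0.04, SYMPK, the scaffold of the cleavage complex, at 0.21 ± 0.04, NCBP1, a subunit of the cap-binding complex, at 0.17 ± 0.04, and SRRT, which binds that complex, at 0.14 ± 0.03 (SE, log2 difference). For CCNE1, SYMPK and SRRT the TM difference was lower in KO than in control cells, with interactions of -0.33 ± 0.06, -0.23 ± 0.06 and -0.22 ± 0.04 that passed the limma test. HJURP, the chaperone of CENPA, was lower in KO than in control cells in both treatments, at -0.91 ± 0.03 with TM and -0.49 ± 0.03 with DMSO.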
